A study of Mus musculus with 9 samples.

Results

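The genes examined were 8 genes of cell fusion in osteoclast precursors, namely Dcstamp, Ocstamp, Atp6v0d2, Cd9, Cd81, Cd47, Sirpa and Adam8. They were taken by gene symbol from the 28379 genes of the deposited table, and all 8 were found and passed the filter on low counts. RNA was sequenced from primary bone marrow-derived macrophages (BMDMs) of C57BL/6J mice, 10 weeks old, all of them cultured with macrophage colony-stimulating factor (M-CSF, 20 ng/ml) for 48 h. PBS was given in place of RANKL to the PBS group. The cytokine RANKL, which turns these cells into osteoclasts, was given at 100 ng/ml in the RANKL group, and at the same dose in the RANKL + Vit D + K group, together with vitamin D (1000 nM) and vitamin K, whose dose is 20 μM in the sample labels and 40 μM in the methods. According to the methods, the vitamins were calcitriol, which is active vitamin D, and MK4, a vitamin K2. Each group had 3 libraries, and no group received either vitamin alone or a vitamin without RANKL. The methods describe libraries made from pooled RNA without saying how many mice or cultures were pooled, so the p-values measure the spread between these libraries, which may be technical.

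Osteoclasts become large and multinucleated by the fusion of mononuclear precursors, and cells that do not fuse resorb bone poorly. DC-STAMP (Dcstamp) and OC-STAMP (Ocstamp) are multipass membrane proteins without which precursors stay mononuclear, and the d2 subunit of the vacuolar proton pump (Atp6v0d2) is also required for efficient fusion. CD9 and CD81 are tetraspanins, proteins that organize partners in the membrane, and mice that lack both form more macrophage giant cells. CD47 and its receptor SIRPα (Sirpa) act in the contact between macrophages, and ADAM8 is a membrane-anchored protein with a metalloprotease and a disintegrin domain that has been linked to osteoclast formation.

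Total counts were between 65915112 and 68229647 per library, so that a gene without any count may still make up 3 counts, or at most 4.55e-06% of a library. In each group, replicate 2 differed more from the other libraries than they differed from each other. By squared count differences scaled to the mean count, averaged over genes, this was 103.6 and 67.2 against 11.4 with the vitamins. It was 33.4 and 38.9 against 6.04 with RANKL and 16.6 and 18.2 against 7.03 with PBS. Fos, an early response gene, had 10811 counts in vitamin replicate 2 against 114 and 71. It was also highest in replicate 2 with RANKL (25462 against 11420 and 4295) and with PBS (4929 against 3017 and 1428). The 11 osteoclast markers checked the labels, with a summed level of 1190 to 1303 CPM (counts scaled to library size) in the PBS group, 2295 to 3642 in the RANKL group and 1352 to 1493 with the vitamins. Tcirg1, a proton pump subunit, made up 55.8% to 58.5%, 19.6% to 31.0% and 46.3% to 49.6% of that sum in the same order of groups. Without it the sum was 511 to 558, 1583 to 2930 and 681.5 to 802 CPM. Of these 11 genes, 7 rose and none fell with RANKL, and with the vitamins against RANKL 7 fell and 2 rose, Itgb3 and Clcn7 (Clcn7 is named after its value was seen). Ctsk, the cathepsin of osteoclasts, rose by 4.83 ± 0.348 on the log2 scale with RANKL (adjusted p = 0.000370) and fell by 2.80 with the vitamins (SE 0.316, adjusted p = 0.000753), and Acp5, which encodes TRAP, rose by 5.57 ± 0.687 (adjusted p = 0.00514) and fell by 5.89 (SE 0.698, adjusted p = 0.000881). Cyp24a1, the enzyme that breaks down calcitriol and a classical target of it, had 0 counts in every RANKL library and 39, 113 and 64 with the vitamins, at least 24.1-fold higher against a floor of 3 counts per library. Calcr, the calcitonin receptor, was at 0 in every library of the PBS and RANKL + Vit D + K groups. All 10 macrophage markers had a mean of at least 1 CPM in each group, their sum was 45570 to 52600 CPM in the PBS group, 28770 to 41940 with RANKL and 8722 to 19950 with the vitamins, and with the vitamins against RANKL 7 of them were called lower and 1, Cd68 (named after its value was seen), higher. Lyz2 made up 53.7% to 79.4% of that sum, and without it the sum was 10080 to 11180, 6805 to 8937 and 4039 to 4844 CPM in the same order of groups. The 11 neutrophil markers summed to 276 to 484 CPM, 127 to 255 CPM and 39.5 to 86.4 CPM in the same order. Mmp8, the 1 marker called lower with RANKL, made up 41.4% to 99.3% of the sum in a library, and without it the sums were 10.2 to 126.1, 11.5 to 149.6 and 0.486 to 1.44 CPM. With the vitamins 8 were called lower than with RANKL, and 7 of the 11, among them Elane, Mpo and Ltf, were at 0 in all 3 libraries of the vitamin group. In each library, the dendritic cell, B cell, T and NK cell, stromal or osteoblast, and erythroid or megakaryocyte lists each summed to 102.2 CPM or less. In the same order of groups, B cell sums were 54.6 to 102.2, 15.2 to 20.8 and 0.121 to 1.78 CPM. For T and NK cells, with 2 of 7 listed genes found, they were 1.53 to 2.91, 10.6 to 17.3 and 0.486 to 1.27. Dendritic sums were 1.41 to 2.04, 3.93 to 5.51 and 0.182 to 1.47. Stromal or osteoblast sums were 10.43 to 14.64, 10.45 to 10.92 and 12.57 to 18.02. Erythroid or megakaryocyte sums were 5.92 to 26.7, 3.58 to 12.13 and 8.96 to 16.0. The part of these differences between cultures in the results below was not tested, and in bulk RNA fewer cells of a type and less RNA per cell cannot be told apart.

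The first comparison, the RANKL group against the PBS group, asks which of the fusion genes the osteoclast signal raised within 48 h. Dcstamp, Ocstamp and Atp6v0d2 rose, and the 5 surface genes Cd9, Cd81, Cd47, Sirpa and Adam8 did not pass the test, Cd81 with lower values in every RANKL library and by a narrow margin (adjusted p = 0.0504), at an adjusted p under 0.05 (edgeR's quasi-likelihood test, Benjamini-Hochberg adjusted over 17002 genes). Over all genes tested, 3.61% were called in either direction, 2.35% as higher and 1.26% as lower. The median log2 fold change of the 8 genes was 0.29, beside -0.04 over all genes.

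In the second comparison, of the RANKL + Vit D + K group with the RANKL group, the genes raised by RANKL went apart. Dcstamp, Ocstamp and Cd47 were lower with the vitamins, Adam8 and Cd9 were higher, and Atp6v0d2, Cd81 and Sirpa did not pass the test. That is 5 of 8 genes called, where 33.7% of all genes were called, 16.4% as higher and 17.2% as lower. The median log2 fold change was -0.26 for the 8 genes and -0.04 over all genes. Of the 5 calls, those of Dcstamp, Ocstamp and Adam8 held under all 14 alternative analyses, whereas that of Cd9 was lost under 11 and that of Cd47 under 7. The log2 fold changes ranged over these alternatives from -4.97 to -2.49 for Dcstamp, from -9.03 to -2.06 for Ocstamp and from 1.07 to 1.42 for Adam8. The comparison of the RANKL + Vit D + K group with the PBS group called Dcstamp, Atp6v0d2, Cd9 and Adam8 as higher and Cd81 and Cd47 as lower, against 40.8% of all genes called, 19.8% as higher and 21.0% as lower. Counted by whether the FPKM of all 3 libraries of a group lay on 1 side of the other group, 5 of the 8 genes were higher and 1 lower with RANKL than with PBS, where 35.2% of all genes were apart (22.4% higher and 12.9% lower). With the vitamins, 2 were higher and 4 lower than with RANKL (46.2% of all genes apart, 17.0% higher and 29.2% lower), and 4 were higher and 1 lower than with PBS (52.5%, 24.8% and 27.7%). The RANKL libraries enter the first 2 comparisons, and the PBS libraries also enter the last, so that none is independent of the others.

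**Figure D1:**
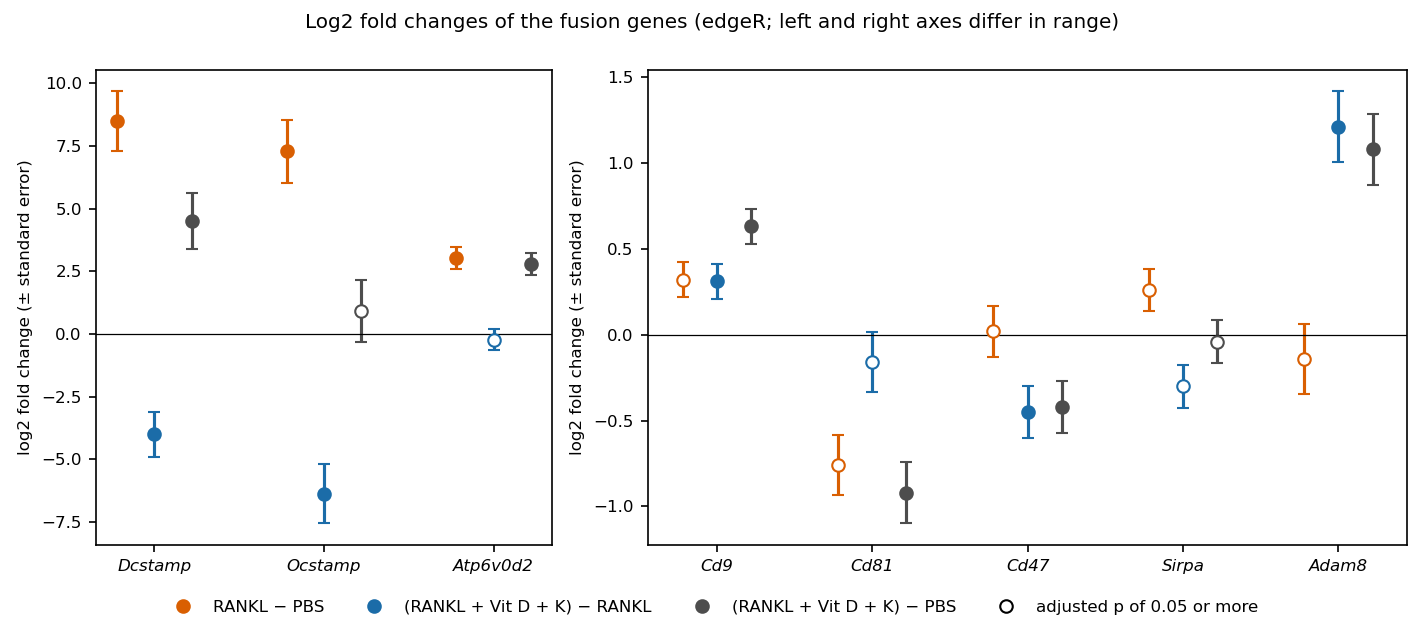
Log2 fold changes of the 8 fusion genes between groups of 3 libraries, with the standard error as a bar; filled points passed an adjusted p of 0.05 in edgeR's test and open points did not. The left panel holds Dcstamp, Ocstamp and Atp6v0d2 and the right panel, on a narrower axis, the other genes. Dcstamp and Ocstamp lie far above 0 with RANKL and far below 0 when the vitamins were added, while the vitamin value of Atp6v0d2, -0.23, is an open point near 0.

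Dcstamp (ENSMUSG00000022303, chr15:39745930-39760938, plus strand) encodes the fusion protein whose loss leaves osteoclasts mononuclear. Its FPKM (fragments scaled to transcript length and to library size, as computed by the authors) was 0, 0.047 and 0 in PBS replicates 1 to 3, which rests on 0, 11 and 0 counts. In the RANKL group it was 6.23, 12.7 and 3.86, with 1245, 2536 and 803 counts, and with the vitamins it was 0.110, 0.906 and 0.283, with 23, 188 and 59 counts. None of the 3 groups overlapped, and the highest value of the vitamin group came from its replicate 2. The log2 fold change of RANKL over PBS was 8.50 ± 1.19 (SE, adjusted p = 0.00854), and its 95% interval reached from 56.4-fold to 2340-fold. That size rests on 11 counts in 1 PBS library: without PBS replicate 2 the PBS group was at 0 and the size could not be estimated, here or for the vitamins against PBS, although both calls stayed. With the vitamins Dcstamp fell by 4.0 on the log2 scale (SE 0.900, adjusted p = 0.0100), and it stayed above the PBS group by 4.51 ± 1.11 (adjusted p = 0.0115). Without vitamin replicate 2 these values were -4.97 and 3.53, and both calls held.

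Ocstamp (ENSMUSG00000027670, chr2:165393760-165400405, minus strand), a relative of Dcstamp with the same requirement in fusion, was near 0 FPKM in both the PBS and the vitamin group. The PBS libraries held 5, 12 and 0 counts (0.0173, 0.0410 and 0 FPKM), the RANKL libraries 929, 1588 and 494 counts (3.396, 5.82 and 1.74 FPKM) and the vitamin libraries 3, 31 and 0 counts (0.0108, 0.110 and 0 FPKM). Every RANKL library was above every other library, and the PBS and vitamin groups overlapped. The log2 fold change was 7.29 ± 1.25 for RANKL over PBS (adjusted p = 0.0180) and -6.37 ± 1.18 for the vitamins over RANKL (adjusted p = 0.00465). Without PBS replicate 2 the first was 8.46, and without vitamin replicate 2 the second was -9.03, both still called. Between the vitamin and PBS groups it was 0.92 with a 95% interval from -1.86 to 3.69 (adjusted p = 0.586), so that neither an equal level nor a several-fold difference could be told at these counts. The RANKL call was lost without PBS replicate 1, PBS replicate 3, RANKL replicate 1 or RANKL replicate 2, with adjusted p values between 0.0380 and 0.0945 over the libraries left out in turn.

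Atp6v0d2 (ENSMUSG00000028238, chr4:19876841-19922605, minus strand), the proton pump subunit, was the member that rose with RANKL and was not called lower with the vitamins. It measured 3.56, 4.40 and 2.96 FPKM with PBS, 31.3, 45.1 and 22.4 with RANKL alone and 38.8, 12.4 and 21.96 with the vitamins. The vitamin libraries overlapped the RANKL libraries, all of them were above the PBS libraries, and their replicate 2, which had the most Dcstamp, had the least Atp6v0d2. RANKL raised it by 3.04 ± 0.443 on the log2 scale (adjusted p = 0.00950), a call lost without PBS replicate 1 or PBS replicate 3 (highest adjusted p = 0.0553). With the vitamins it differed from the RANKL group by -0.23 ± 0.409 (adjusted p = 0.701), with a 95% interval from 0.451-fold to 1.62-fold, and from the PBS group by 2.81 ± 0.439 (adjusted p = 0.00148). The direction against the RANKL group turned to 0.12 without vitamin replicate 2 and to 0.02 without RANKL replicate 2.

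The 3 genes raised by RANKL therefore kept different shares of that level when the vitamins were added. The mean FPKM of the vitamin group was 5.68% of the RANKL mean for Dcstamp, 1.103% for Ocstamp and 74.1% for Atp6v0d2. Library by library, the shares were 1.44%, 11.9% and 3.71% for Dcstamp, 0.296%, 3.01% and 0% for Ocstamp, and 118%, 37.8% and 66.7% for Atp6v0d2. The lowest of the Atp6v0d2 shares was above the highest share of the other two genes. The FPKM ratio of Dcstamp to Atp6v0d2, a pair chosen after the values were seen, was 0.199, 0.282 and 0.173 in the RANKL libraries and 0.00283, 0.0729 and 0.0129 in the vitamin libraries. The ratio of the geometric means was 15.4 times lower with the vitamins, the groups did not overlap, and the exact two-sided permutation test gave p = 0.1, below which 3 libraries against 3 cannot go. The mean log2 difference of -3.95 was -2.80 without vitamin replicate 1 and -5.15 without vitamin replicate 2.

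**Figure D2:**
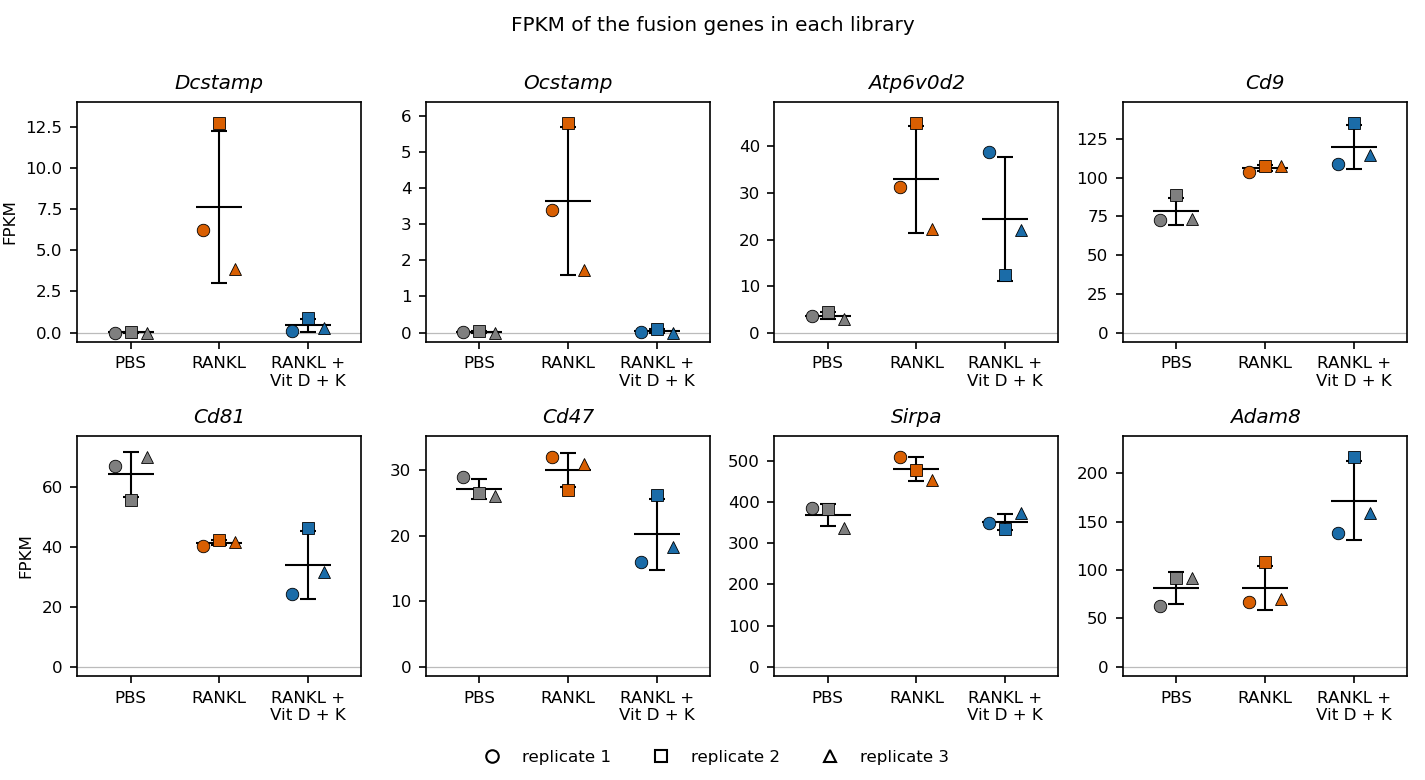
FPKM of each fusion gene in each of the 9 libraries, on a linear axis of its own; colours mark the group, symbols the replicate number, and the bar and whiskers the mean and SD of 3 libraries. Dcstamp and Ocstamp stand clear of 0 mainly in the RANKL group, Atp6v0d2 is high in both RANKL-treated groups, Cd81 is highest in the PBS group, and Adam8 is highest in the RANKL + Vit D + K group, where its 3 values lie between 138 and 217.

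The other genes of the V0 sector, the membrane part of the pump, served as the reference for Atp6v0d2. Among the 9 others tested, none was called with RANKL, and 2 were called with the vitamins against RANKL, both higher: Atp6ap2, an accessory subunit, by 0.72 ± 0.151 (adjusted p = 0.00761) and Atp6v0a1, an a subunit, by 0.56 ± 0.135 (adjusted p = 0.0134). Atp6v0d1, the d subunit found in most tissues, ranged from 74.4 to 87.2 FPKM with PBS, from 92.7 to 102.7 with RANKL and from 101.1 to 110.1 with the vitamins, and it did not pass the test in the first comparison (log2 fold change 0.19, adjusted p = 0.432) or the second (0.24, adjusted p = 0.143), but it was called higher with the vitamins than with PBS (0.43, adjusted p = 0.0168), as were 4 of the 9 in all. Tcirg1, the a3 subunit that osteoclasts use for acid secretion, changed by -0.11 with RANKL (adjusted p = 0.680) and by 0.05 with the vitamins (adjusted p = 0.761). The FPKM ratio of Atp6v0d2 to Atp6v0d1 had a geometric mean of 0.0455 with PBS, 0.320 with RANKL alone and 0.210 with the vitamins. Both RANKL-treated groups were above the PBS group in every library (exact permutation test, p = 0.1 each, 0.143 after adjustment over 10 ratio comparisons), and they overlapped each other (p = 0.4).

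Between the PBS and the vitamin groups the tetraspanins Cd9 and Cd81 moved in opposite directions, Cd9 up and Cd81 down. Cd9 (ENSMUSG00000030342, chr6:125460266-125494791, minus strand) measured 72.6, 88.5 and 73.4 FPKM with PBS, 103.9, 107.4 and 107.2 with RANKL alone and 108.6, 135.5 and 114.6 with the vitamins. Each group lay above the one before it without overlap. The rise with RANKL, 0.32 ± 0.101 on the log2 scale, did not pass the test over all genes (adjusted p = 0.127). It was called by DESeq2 (0.35, adjusted p = 0.0463) and in a model of the 2 groups alone (0.37, adjusted p = 0.0364). Against the RANKL group the vitamin value was 0.31 ± 0.101 (adjusted p = 0.0407), a call that was lost in 11 of 14 alternative analyses, among them DESeq2 and limma on FPKM. From PBS to the vitamin group the rise was 0.63 ± 0.101 (adjusted p = 0.00166), and that call held in all 14.

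Cd81 (ENSMUSG00000037706, chr7:143052739-143067934, plus strand) measured 67.1, 55.9 and 70.2 FPKM with PBS, 40.4, 42.3 and 41.9 with RANKL alone and 24.2, 46.4 and 31.7 with the vitamins. All RANKL libraries were below all PBS libraries, and the vitamin libraries spread on either side of the RANKL libraries. The log2 fold change of -0.76 ± 0.176 with RANKL just missed the threshold (adjusted p = 0.0504), and it was called by DESeq2 (-0.73, adjusted p = 0.0107) and in a model of the 2 groups alone (-0.71, adjusted p = 0.0102). In the vitamin group Cd81 was 0.92 ± 0.176 below the PBS group on the log2 scale (adjusted p = 0.00375), while the difference of -0.16 from the RANKL group had a 95% interval from -0.56 to 0.23 (adjusted p = 0.510). The FPKM ratio of Cd9 to Cd81 was 1.08, 1.58 and 1.05 with PBS, 2.57, 2.54 and 2.56 with RANKL alone and 4.48, 2.92 and 3.62 with the vitamins. It rose at both steps without overlap, by 2.10 times with RANKL and by a further 1.42 times with the vitamins, and each exact permutation test gave p = 0.1 (0.143 after adjustment).

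The promoters of this pair are printed because the genes of 1 family moved apart. Each sequence is the 250 bases before the RefSeq transcription start, 5′ to 3′ on the strand of the gene (GRCm38.p6), at chr6:125494761-125495010 on the minus strand for Cd9 and chr7:143052500-143052749 on the plus strand for Cd81; capitals mark E-boxes of the form CACNTG on either strand.
Cd9: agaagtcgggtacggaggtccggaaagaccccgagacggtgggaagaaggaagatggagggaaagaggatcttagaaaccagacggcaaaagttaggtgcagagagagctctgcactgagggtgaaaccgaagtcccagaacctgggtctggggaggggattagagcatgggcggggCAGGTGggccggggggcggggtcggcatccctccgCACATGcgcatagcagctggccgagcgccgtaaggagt
Cd81: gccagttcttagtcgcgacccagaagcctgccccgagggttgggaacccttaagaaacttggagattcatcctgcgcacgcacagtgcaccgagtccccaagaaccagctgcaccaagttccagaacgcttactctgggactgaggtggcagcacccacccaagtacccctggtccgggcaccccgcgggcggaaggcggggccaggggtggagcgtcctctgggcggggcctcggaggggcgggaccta
The windows searched ran from 250 bases before to 50 after the start, on both strands, for this E-box, the NFAT core TGGAAA, the AP-1 element TGANTCA, the PU.1 core GAGGAA and the vitamin D receptor element of the DR3 type. The Cd9 window held the E-box as CAGGTG and CACATG, which did not overlap, and none of the other motifs, and the Cd81 window held none. Of 32851 such windows over the genome, 44.9% held this E-box, 28.3% the PU.1 core, 21.4% the NFAT core, 7.81% the AP-1 element and 0.0396% the DR3 element.

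Of the 21 other tetraspanins tested, 1 was called with RANKL: Tspan7 rose by 4.38 ± 0.921 on the log2 scale (adjusted p = 0.0366). With the vitamins against RANKL, 4 were higher and 6 lower (16.4% and 17.2% of all genes), and the median of all 23 tetraspanins was -0.51. Cd53, a tetraspanin of blood cells, rose from between 109.4 and 146.6 FPKM to between 214 and 462 (log2 fold change 1.57 ± 0.301, adjusted p = 0.00541). Tspan33 fell by 3.74 on the log2 scale (SE 0.971, adjusted p = 0.0176), and Tspan17, Rom1 and Tspan32 fell by 1.26, 1.20 and 1.09 (adjusted p = 0.0107, 0.00826 and 0.0300). Of the tetraspanins chosen as counterparts of Cd9 and Cd81, Cd82 rose by 0.56 ± 0.132 (adjusted p = 0.0124), and Cd63, a tetraspanin of lysosomes and exosomes, differed by 0.12 (adjusted p = 0.489). Among 8 membrane partners of tetraspanins, none was called with RANKL, whereas 1 was higher and 3 were lower with the vitamins (16.4% and 17.2% of all genes). Ptgfrn, an immunoglobulin superfamily protein bound by CD9 and CD81, fell by 1.44 (SE 0.247, adjusted p = 0.00348), Ifitm1 fell by 3.45, and Itga6, an integrin chain, fell by 1.33. Itgb1, the β1 integrin chain, rose by 0.44 ± 0.0900 (adjusted p = 0.00653). Igsf8, a relative of Ptgfrn, had a log2 difference of 0.11 (adjusted p = 0.568).

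Cd47 (ENSMUSG00000055447, chr16:49800533-49911091, plus strand), the ligand of SIRPα, measured 28.9, 26.5 and 26.1 FPKM with PBS, 32.0, 27.0 and 31.0 with RANKL alone and 16.0, 26.3 and 18.3 with the vitamins. All vitamin libraries were below all RANKL libraries, the highest of them, replicate 2, by less than 1 FPKM. RANKL left a difference of 0.02 with a 95% interval from -0.31 to 0.36 (adjusted p = 0.956). The vitamins lowered Cd47 against RANKL by a log2 fold change of -0.45 ± 0.150 (adjusted p = 0.0454), lost without RANKL replicate 1 or 3 or vitamin replicate 1 or 3 (highest adjusted p = 0.152), with the replicate block (0.0737), without the filter on low counts (0.0596) and in the 2 groups alone (0.0955). The call against PBS (-0.42 ± 0.150, adjusted p = 0.0479) was lost in 13 of 14 alternatives; it stayed without vitamin replicate 2, where the adjusted p was 0.00422.

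Sirpa (ENSMUSG00000037902, chr2:129592835-129632228, plus strand), the receptor, was the most abundant of the 8 genes per length in every group. It measured 384.8, 381.8 and 337.3 FPKM with PBS, 509, 476 and 452 with RANKL alone and 348, 334 and 372 with the vitamins. The RANKL libraries stood above all others without overlap, yet the model gave 0.26 ± 0.125 for RANKL over PBS (adjusted p = 0.314) and -0.30 ± 0.125 for the vitamins over RANKL (adjusted p = 0.0969). On log2(FPKM + 0.1), limma called the second difference (-0.45, adjusted p = 0.0139), with a median over all genes of -0.16 in place of -0.04, and on log2(FPKM + 1) it also called it (-0.45, adjusted p = 0.0121), with a median of -0.07. The vitamin and PBS groups overlapped, with a log2 difference between -0.32 and 0.24 (95% interval). The ratio of Cd47 to Sirpa was lower with RANKL in every library, with a geometric mean of 0.0625 against 0.0739 in the PBS group (exact permutation test, p = 0.1), and the vitamin libraries overlapped both groups (geometric mean 0.0562, p = 0.6 against RANKL and 0.4 against PBS). Whether the counting shared reads between Sirpa and its close relatives Sirpb1a, Sirpb1b and Sirpb1c is not stated, so these values carry that uncertainty.

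Among the 15 other genes of the CD47 and SIRP axis tested, 1 was called with RANKL: Calr, which encodes the chaperone and engulfment signal calreticulin, rose by 0.84 ± 0.117 (adjusted p = 0.00834). With the vitamins against RANKL, 2 rose and 7 fell (16.4% and 17.2% of all genes). Thbs1, whose product thrombospondin-1 also binds CD47, fell by 4.55 on the log2 scale (SE 0.961, adjusted p = 0.00778), from 54.0, 6.78 and 117.8 FPKM to 2.68, 2.04 and 2.26. Ptpn6, which encodes the phosphatase SHP-1 that SIRPα recruits, fell by 1.25 (SE 0.319, adjusted p = 0.0163), and Ptpn11, which encodes SHP-2, had a log2 difference of 0.21 (adjusted p = 0.0976). Lrp1, the receptor for calreticulin on phagocytes, rose by 0.66 ± 0.175 (adjusted p = 0.0187), and Itgb3, the β3 integrin chain, by 2.08 ± 0.547 (adjusted p = 0.0186), although its groups overlapped. Sirpb1a and Sirpb1c, the activating relatives of Sirpa, fell by 1.29 and 1.32.

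Adam8 (ENSMUSG00000025473, chr7:139978932-139992562, minus strand) was the member that the vitamins raised most. It measured 62.8, 91.6 and 91.4 FPKM with PBS, 66.7, 108.1 and 70.2 with RANKL alone and 138.4, 217.2 and 159.5 with the vitamins. The PBS and RANKL groups overlapped, and every vitamin library was above every other library. With RANKL the log2 fold change was -0.14, with a 95% interval from -0.60 to 0.32 (adjusted p = 0.784). With the vitamins it was 1.21 ± 0.207 over RANKL (adjusted p = 0.00339) and 1.08 ± 0.206 over PBS (adjusted p = 0.00377), and both calls held in all 14 alternatives. Without vitamin replicate 2, the highest library, they held as well.

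The promoter of Adam8 is printed as that of the member with the largest rise with the vitamins over RANKL (250 bases before the RefSeq start, chr7:139992563-139992812, minus strand, GRCm38.p6). None of the 5 motifs above was in its window, nor in those of Cd47.
Adam8: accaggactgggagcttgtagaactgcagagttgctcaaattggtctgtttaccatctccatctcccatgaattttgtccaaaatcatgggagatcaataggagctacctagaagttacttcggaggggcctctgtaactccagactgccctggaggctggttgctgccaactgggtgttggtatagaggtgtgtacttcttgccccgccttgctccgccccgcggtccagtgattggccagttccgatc

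Of the 8 other ADAM genes tested, none was called with RANKL, and with the vitamins against RANKL 1 was higher and 3 were lower (16.4% and 17.2% of all genes). Adam9, the other gene called higher, differed by 0.38 ± 0.112 (adjusted p = 0.0300). Adam19 fell by 2.84 on the log2 scale (SE 0.452, adjusted p = 0.00260), Adam22 by 2.34 and Adam33 by 1.44. Adam10, Adam15 and Adam17, the broadly expressed sheddases, did not pass the test, with -0.12, 0.00 and -0.35. Adam12, also linked to cell fusion, had at most 4 counts in any library. Gm16201, which overlaps Adam8 on the opposite strand, had at most 250 counts in a library, or 0.668% of the Adam8 count there. For the genes overlapping Cd9 and Cd81, the same share was at most 0.387% and 1.03%.

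**Figure D3:**
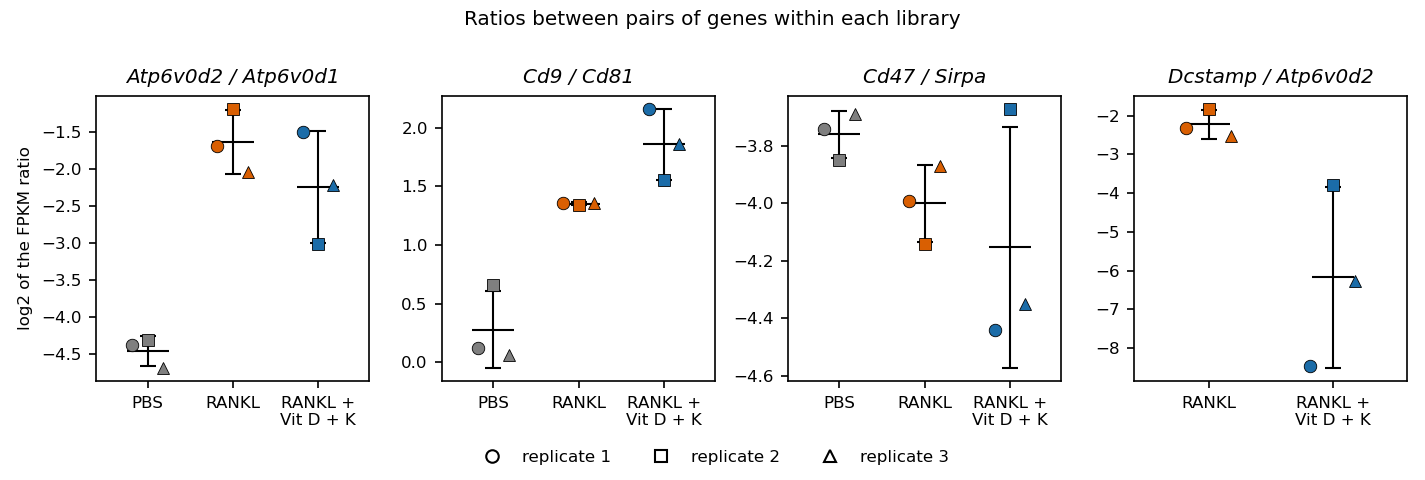
Log2 ratios of the FPKM of gene pairs within each library, with the mean and SD of 3 libraries per group; symbols mark the replicate number. Atp6v0d2 rises over Atp6v0d1 in both RANKL-treated groups, Cd9 rises over Cd81 at each step, Cd47 over Sirpa shows overlapping groups with the vitamins, and Dcstamp over Atp6v0d2 falls from a mean log2 ratio of -2.23 to -6.17.

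Further genes described for the fusion of macrophages or osteoclasts moved with RANKL in part. Of 48 tested, 8 rose and 1 fell, where 2.35% and 1.26% of all genes did, and the median log2 fold change was 0.14. Myo10, a myosin of the filopodia that contact neighbouring cells, rose from 1.19, 1.29 and 1.103 FPKM to 6.89, 9.97 and 5.87 (log2 fold change 2.53 ± 0.178, adjusted p = 0.000339). Mmp9, a gelatinase of osteoclasts, rose by 8.81 ± 0.811 (adjusted p = 0.00129). Siglec15, a lectin receptor needed for osteoclast maturation, had 0 counts in all PBS libraries and 46, 134 and 69 in the RANKL libraries, at least 27.3-fold higher against a floor of 3 counts per library. Mst1r, a receptor kinase reported in osteoclasts, was likewise at 0 in the PBS group and at 769, 1343 and 523 counts with RANKL, at least 289-fold higher. Panx1, a channel for ATP release named after its value was seen, was the gene that fell, by 1.52 on the log2 scale (SE 0.223, adjusted p = 0.00952).

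With the vitamins against RANKL, 13 of these 48 genes rose and 17 fell (16.4% and 17.2% of all genes), and the median was -0.04, as over all genes. Mmp9 fell by 5.01 (SE 0.674, adjusted p = 0.00135) and Siglec15 returned to 0 counts in all 3 libraries, at least 27.5-fold lower. Mst1r had 0, 45 and 0 counts, all of them in replicate 2. Ccr2, the receptor for the chemokine CCL2, fell by 5.76 (SE 0.684, adjusted p = 0.000881), which was not called in the RANKL group against PBS (adjusted p = 0.880), and Vcam1, an adhesion molecule, fell by 4.93 (SE 0.551, adjusted p = 0.000736) from at most 0.633 FPKM. Myo10 fell by 0.63 (SE 0.168, adjusted p = 0.0196) and stayed above the PBS level at 3.57, 5.13 and 4.53 FPKM. Cdh1, the E-cadherin gene, had 0 counts in the PBS group and a mean of 0.292 CPM with RANKL and 1.35 CPM with the vitamins, a rise of 2.33 ± 0.633 on the log2 scale at that low level (adjusted p = 0.0279).

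Of 28 genes for regulators of osteoclast fusion genes, 4 rose and 1 fell with RANKL (2.35% and 1.26% of all genes). With the vitamins against RANKL, 6 of them rose and 7 fell (16.4% and 17.2% of all genes). Nfatc1, the main transcription factor upstream of Dcstamp and Atp6v0d2, measured 9.92, 9.27 and 9.19 FPKM in the PBS group, 18.7, 21.4 and 14.4 with RANKL and 6.41, 7.48 and 6.44 with the vitamins. It thus rose by 0.81 ± 0.125 (adjusted p = 0.0121) and then fell by 1.27 on the log2 scale (SE 0.127, adjusted p = 0.000440), below every PBS library. Jdp2, an AP-1 family factor, rose by 3.36 ± 0.411 with RANKL (adjusted p = 0.00502) and fell by 1.84 with the vitamins (SE 0.386, adjusted p = 0.00763). Bcl6, a repressor of Dcstamp and Nfatc1 in osteoclasts, went the other way, by -1.0 ± 0.138 and then 0.67 ± 0.137 (adjusted p = 0.00779 and 0.00664). Prdm1, which encodes Blimp1, a repressor of anti-osteoclast genes, was between 6.61 and 9.88 FPKM with RANKL and between 0.525 and 0.766 with the vitamins (log2 fold change -3.59 ± 0.181, adjusted p = 6.16e-05). Klf4, a factor of monocyte differentiation, rose at both steps, by 0.85 ± 0.156 and 1.71 ± 0.158 (adjusted p = 0.0215 and 0.000362), and Nfkb2, a subunit of the non-canonical NF-κB pathway, rose by 0.89 ± 0.158 and then fell by 0.64 (adjusted p = 0.0199 and 0.0144). With the vitamins against RANKL, Jun, an AP-1 subunit, rose by 2.34 ± 0.267 (adjusted p = 0.000773), Id2, an inhibitor of basic helix-loop-helix factors, rose by 2.12 ± 0.412 (adjusted p = 0.00561), and Fosl2, another AP-1 subunit, fell by 2.0 (SE 0.373, adjusted p = 0.00483). Fos was not called in either comparison (adjusted p = 0.537 and 0.353), and its vitamin libraries differed among themselves from 0.404 to 59.7 FPKM. Vdr, the vitamin D receptor, was at most 0.327 FPKM in any library, and at that low level it was called lower with the vitamins than with RANKL (-3.15 ± 0.873, adjusted p = 0.0227) and than with PBS (-4.14 ± 0.896, adjusted p = 0.00646).

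**Figure D4:**
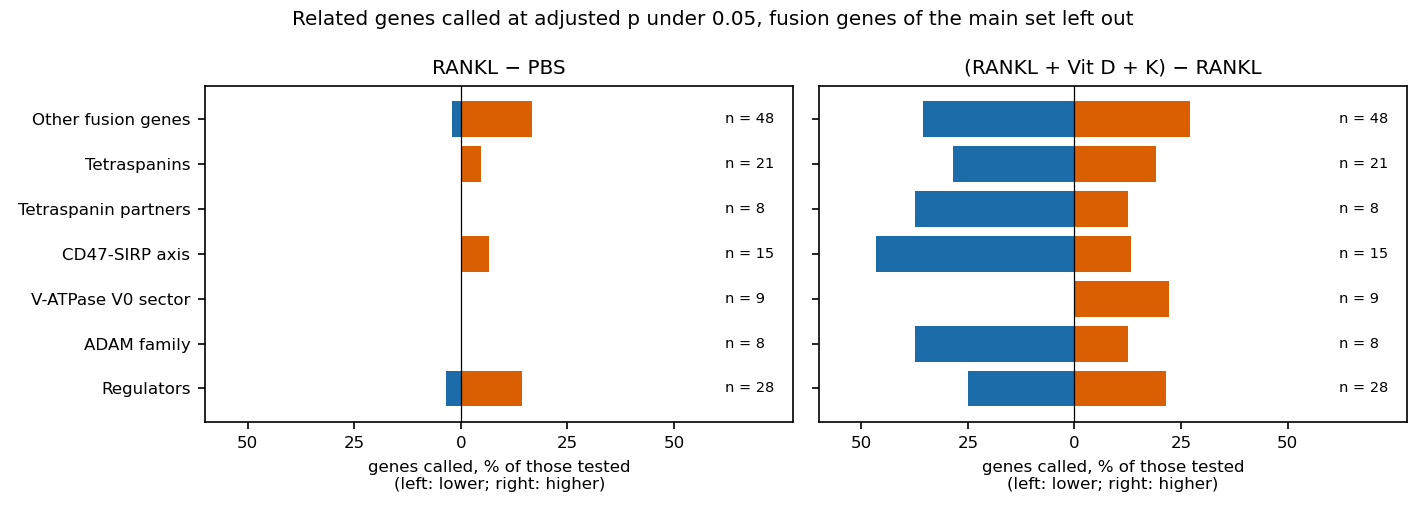
Shares of related genes called at an adjusted p under 0.05, with the 8 fusion genes left out; bars to the right are genes higher and bars to the left genes lower in the first group named, and n is the number of genes tested per list. With RANKL, 8 of the 48 other fusion genes were higher and 1 lower, the most of any list shown, where 3.61% of all genes were called. With the vitamins most lists held calls in both directions, where 33.7% of all genes were called.

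By level, Sirpa led in all 3 groups and Dcstamp and Ocstamp were the lowest 2. Per length, Sirpa at a mean of 479 FPKM in the RANKL group was followed by Cd9 at 106.2 ± 1.98 (SD, n = 3), Adam8 at 81.7 ± 23.0, Cd81 at 41.5 ± 0.986, Atp6v0d2 at 32.9 ± 11.5, Cd47 at 30.0 ± 2.65, Dcstamp at 7.61 ± 4.60 and Ocstamp at 3.65 ± 2.05. Neighbouring genes whose ranges overlapped in that order were Cd9 with Adam8, Cd81 with Atp6v0d2, Atp6v0d2 with Cd47, and Dcstamp with Ocstamp. The spread between the RANKL libraries was widest for the genes that RANKL raised, with a coefficient of variation of 60.4% for Dcstamp, 56.2% for Ocstamp and 34.9% for Atp6v0d2, against 28.1% for Adam8, 8.84% for Cd47, 6.0% for Sirpa, 2.37% for Cd81 and 1.86% for Cd9. RANKL replicate 2 had the highest FPKM of 6 of the 8 genes in its group (all but Cd47 and Sirpa), by a wide margin for Dcstamp, Ocstamp, Atp6v0d2 and Adam8, and also the highest sum of osteoclast markers (3642 CPM) and the lowest of macrophage markers (28770 CPM). In the vitamin group replicate 2 had the highest value of 6 of the 8 genes and the lowest of Atp6v0d2 and Sirpa.

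The genes most like each member over the 9 libraries were sought by the root mean square difference of log2 CPM after each gene was centred on its own mean. For Dcstamp they were Akap6 (0.925), Mmp9 (1.05) and A330074K22Rik (1.097), and Ocstamp came 40th. For Ocstamp they were Sema7a (0.919), Mst1r (1.04) and Acp5 (1.05), and Dcstamp came 53rd. Out of 17002 genes tested, each of these related genes was thus near the other, at a distance of 1.87. For Atp6v0d2 they were Klrb1c (0.223), which had at most 23 counts in a library, Denn2b (0.376) and Angpt2 (0.471), and among the genes most like Dcstamp, Atp6v0d2 came 207th. The 5 surface genes varied less, and their nearest genes were closer: Ddost (0.054) for Cd9, Pgd (0.113) for Cd81, Ptdss2 (0.070) for Cd47, Mrpl48 (0.057) for Sirpa and Pdlim7 (0.126) for Adam8. These distances describe 9 libraries in 3 groups and depend on how much each gene varied.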

How the data were processed

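RNA sequencing of 9 libraries (3 groups of 3, named by the sample labels) was analysed. The authors deposited counts per gene, not normalized, and FPKM values that they scaled to transcript length and library. The submitters' processing notes name cutadapt 1.9, HISAT2 2.0.4, StringTie 1.3.4d and edgeR, and the build hg38. The gene IDs are those of mouse, however, and 25633 of 28379 genes had the start and end of GENCODE M21 (GRCm38), to which the coordinates belong. Whether counting used the strand is not given in the sources used here.

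Counts were tested in R 4.3.3 with edgeR 4.0.16 (filterByExpr, TMM, quasi-likelihood test, 1 model of all libraries, 17002 genes). Standard errors were taken as the log2 fold change over the square root of F. Differences in log2 FPKM ratios were tested by exact permutation. The alternatives were DESeq2 1.42.0, limma 3.58.1 on log2(FPKM + 0.1) and log2(FPKM + 1), RLE size factors, no filter, counts divided by 4, the 2 groups alone, a replicate block, and each library of the 2 groups compared left out. The count 4 occurred 2.22 times as often as the counts 3 and 5 on average, so counts and reads may differ. Floors cover counting error only. Intervals were built from the standard errors of the model, so they also cover the spread between these libraries, which may be technical. Tests were checked on simulated counts.

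Replicate numbers come from the labels. Same-numbered libraries of the PBS and RANKL groups deviated together (correlations of deviations from the group means 0.122, 0.219 and 0.155).

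All 8 fusion genes are named, with, from each list of related genes, up to 5 genes with the largest called changes in each of the RANKL-against-PBS and vitamin-against-RANKL comparisons, functional counterparts, and Acp5, Ctsk, Nfatc1, Fos and Cyp24a1 as checks. Elane, Mpo, Ltf and Calcr are named as markers at 0, and Tcirg1, Lyz2 and Mmp8 for their share of a marker sum. Itgb3, Clcn7 and Cd68 are named as markers called against the direction of most of their list. Marker lists are otherwise given by sums and counts, and the genes most like each member are named by their distance. The members, lists and tests were chosen with earlier results of these data known. Promoter sequences are those of RefSeq, found for 4 of the 8 genes.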

Additional observations from a re-analysis of the deposited data

How the results depend on the processing

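With 3 libraries per group, small shifts of the adjusted p decided several calls. In the RANKL group against the PBS group, 3 of the 8 fusion genes and 614 genes in all were called. DESeq2 called 5 and 1611 and the model of the 2 groups alone 5 and 1736. With each PBS or RANKL library left out in turn, the fusion genes called ranged from 1 (without PBS replicate 1 or 3, where Dcstamp alone stayed) to 3, and all genes from 126 to 316. With the vitamins against RANKL alone, 5 fusion genes fell to 3 with the replicate block, without a filter and in the 2 groups alone, and ranged from 3 to 5 with libraries left out, over 3199 to 8259 genes in all in place of 5725. Against PBS the fusion genes called ranged from 5 to 6 and all genes from 4766 to 8868 with libraries left out. The cause of these shifts was not tested.

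Directions turned only for genes that were not called. For RANKL over PBS, Adam8 went to 0.02 without PBS replicate 3 (range with libraries left out, -0.34 to 0.02), and Cd47 to -0.04 without RANKL replicate 1 and -0.02 without RANKL replicate 3 (-0.04 to 0.13). For the vitamins over RANKL, Atp6v0d2 went to 0.02 without RANKL replicate 2 and 0.12 without vitamin replicate 2 (-0.81 to 0.12). For the vitamins over PBS, Sirpa went to 0.05, 0.02 and 0.06 without PBS replicate 1, PBS replicate 2 and vitamin replicate 2 (-0.05 to 0.06), and Ocstamp to -1.74 without vitamin replicate 2 (-1.74 to 2.08); in the 2 groups alone Ocstamp did not pass the filter. Dcstamp against PBS in the vitamin group was not called by limma on log2(FPKM + 1) (0.46, adjusted p = 0.324). For RANKL over PBS, limma on log2(FPKM + 0.1) and log2(FPKM + 1) gave smaller sizes, 5.91 and 2.95 for Dcstamp and 4.83 and 2.09 for Ocstamp.

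On log2(FPKM + 0.1), 35.6% of the genes called with the vitamins against RANKL were higher, against 48.8% in the count model. Over all genes, the replicate numbers were not shown to pair the vitamin libraries with the RANKL libraries (correlations 0.00625, 0.0428 and 0.107) or with the PBS libraries (-0.0216, 0.0217 and 0.0237). For the vitamins against RANKL, the block lowered the SE of Adam8 from 0.207 to 0.127 and of Dcstamp from 0.900 to 0.590. It also lowered that of Ocstamp from 1.18 to 0.784 and of Sirpa from 0.125 to 0.102, but not those of Atp6v0d2, Cd9, Cd81 and Cd47. With the block, Cd9 (adjusted p = 0.0508) and Cd47 (0.0737) lost their calls against RANKL and Cd47 (0.0782) against PBS, and no other call of a fusion gene changed, in any comparison. All 10 ratio comparisons kept their direction with each library left out, though 3 libraries against 3 cannot pass the threshold.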
